A study of Homo sapiens with 12 samples.

Results

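The MYC, MAX and MXD network is a set of transcription factors that bind DNA as pairs through a basic helix-loop-helix leucine zipper. Its 10 members here, chosen by gene symbol from the 58735 genes of the expression table, were the MYC family (MYCN, MYC and MYCL), their shared partner MAX, and the repressive partners of MAX (MXD1, MXD3, MXD4, MXI1, MNT and MGA). All 10 were found once. A MYC protein paired with MAX binds the DNA sequence CACGTG, called an E-box, and activates growth genes, whereas the MXD proteins, MNT and MGA compete for MAX at the same sequence and recruit corepressors. In neuroblastoma, a tumour of the sympathetic nervous system, MYCN is the family member best known for gene amplification, and high MYCN is known to accompany low MYC.

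RNA was sequenced from 12 libraries of 2 human neuroblastoma lines, in 4 groups of 3 replicates. The groups were SK-N-SH with knockdown of TSPYL5, a histone-binding protein of the NAP family (titles shL5), SK-N-SH control (titles shNC, genotype label WT), a second line with the same knockdown, and its control. The second line is SK_N_BE2 in the titles and SH-SY5Y in every other label, and is called the second line here. The labels give no treatment and leave unsaid whether the cells are a clone or a pool and whether the replicates are separate cultures, so that p-values here reflect the spread among libraries, which may be technical. As background, SK-N-SH and SH-SY5Y are lines without MYCN amplification, and SK-N-BE(2) is a line with it.

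The targeted gene was checked first and, against the control of the same line, followed its label in the second line only. TSPYL5 had 17.1, 18.3 and 17.8 FPKM (fragments per kilobase of gene, scaled for depth) in the SK-N-SH libraries labelled knockdown, against 13.1, 13.4 and 12.15 FPKM in SK-N-SH control. It had 13.3, 12.4 and 12.6 FPKM in second line knockdown, against 24.0, 24.4 and 25.8 FPKM in second line control. The target was thus higher, not lower, under the SK-N-SH knockdown label, with a log2 fold of 0.43 (SE 0.05, adjusted p = 7.45e-06), and lower in the second line, with a log2 fold of -0.90 (adjusted p = 9.86e-09). Whole libraries also stood apart across the labels. Over genes, the SK-N-SH libraries labelled knockdown gave r = 0.986 to 0.987 against second line control but 0.705 to 0.724 against their own SK-N-SH control. Second line knockdown gave 0.960 to 0.975 against SK-N-SH control but 0.692 to 0.721 against its own control. Both lines' knockdown libraries thus stood nearer to the other line's control than to their own, and whether labels were exchanged was not tested. Group names are therefore used only as labels below, and an effect of the hairpin and a difference between cells cannot be told apart in any comparison. Libraries held 15542671 to 16355217 reads in SK-N-SH knockdown, 18014544 to 18909666 in SK-N-SH control, 18282551 to 19249018 in second line knockdown and 15425460 to 16459726 in second line control.

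Promoter sequences of the members were searched for the E-box and for an E2F-like sequence, TTTCGCGC or TTTGGCGC, on both strands. The windows were the 250 bases before each start in RefSeq (GRCh38.p14), which gave 14 windows for 9 of the 10 members, with no window for MYC. CACGTG was in 2 of these 14 windows, those of MXD4 and MNT, and in 2228 of all 35116 windows (6.34%). The E2F-like sequence was in the window of MYCN, as a pair of overlapping matches on opposite strands, in 1 of 3 windows of MGA, and in 340 of all windows (0.968%). MXD4 and MNT are shown because they carry the E-box that MYC and MXD proteins share, and MYCN because it has the widest range of the members. Capitals mark the E-box in MXD4 (first base at -238 from the start) and in MNT (-193), and the joined E2F-like matches in MYCN (-176). The windows are chr2:15940300-15940549 (plus strand) for MYCN, chr4:2262110-2262359 (minus strand) for MXD4 and chr17:2401061-2401310 (minus strand) for MNT.
MYCN: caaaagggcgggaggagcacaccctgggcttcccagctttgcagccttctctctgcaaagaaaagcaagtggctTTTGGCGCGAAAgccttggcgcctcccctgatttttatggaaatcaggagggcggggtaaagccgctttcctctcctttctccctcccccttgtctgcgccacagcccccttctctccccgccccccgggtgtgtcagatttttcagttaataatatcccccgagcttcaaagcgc
MXD4: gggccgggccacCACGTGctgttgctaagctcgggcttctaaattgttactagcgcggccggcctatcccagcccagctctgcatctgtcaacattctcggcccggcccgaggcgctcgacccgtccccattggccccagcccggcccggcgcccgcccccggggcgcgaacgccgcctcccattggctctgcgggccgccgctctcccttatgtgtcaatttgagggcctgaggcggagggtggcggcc
MNT: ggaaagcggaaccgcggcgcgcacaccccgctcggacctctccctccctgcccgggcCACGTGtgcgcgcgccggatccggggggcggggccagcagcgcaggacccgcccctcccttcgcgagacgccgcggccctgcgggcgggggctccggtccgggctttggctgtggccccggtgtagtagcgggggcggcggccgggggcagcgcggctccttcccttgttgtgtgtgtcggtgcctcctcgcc
A match is a description of these letters and shows no binding.

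MYCN was among the most abundant messenger RNAs in 2 groups and at or near 0 in the other 2. It lies on chromosome 2 from 15940564 to 15947007 (GRCh38, plus strand, ENSG00000134323). It had 988, 1013 and 1082 FPKM in the SK-N-SH libraries labelled knockdown, against 0, 0.0813 and 0.0411 FPKM in SK-N-SH control, which rest on 0, 4 and 2 reads. It had 0 reads in each second line knockdown library, a count that allows up to 0.0218 FPKM (3 reads in the group), against 1043, 1072 and 1006 FPKM in second line control. No library lay between these levels. The high groups averaged 1028 ± 49.0 FPKM in SK-N-SH knockdown and 1040.4 ± 33.3 FPKM in second line control (SD, n = 3 each), which ranked 19 and 20 of 19951 protein-coding genes. The log2 fold of FPKM + 1 was 9.95 (SE 0.05, limma adjusted p = 7.26e-17) for knockdown over control in SK-N-SH and -10.02 (adjusted p = 6.69e-17) in the second line, where the ratio of mean FPKM was at least 47683-fold lower. Each log2 fold of MYCN between a high group and a group at or near 0 depends on the added 1 and understates the ratio. In bulk RNA, fewer cells of a type and less RNA per cell cannot be told apart.

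MYC, the family member found in most dividing tissues, had the opposite pattern to MYCN at far lower levels. It lies on chromosome 8 from 127735434 to 127741434 (GRCh38, plus strand). MYC had 0.284, 0.211 and 0.276 FPKM in the SK-N-SH libraries labelled knockdown, against 2.50, 3.00 and 2.91 FPKM in SK-N-SH control. It had 2.87, 3.25 and 3.61 FPKM in second line knockdown, against 0.136, 0.312 and 0.221 FPKM in second line control. In MYC level, every library at or near 0 for MYCN stood above every library high in MYCN. Mean MYC was 10.9-fold lower in SK-N-SH knockdown than in SK-N-SH control (log2 fold -1.60, SE 0.09, limma adjusted p = 8.15e-09) and 14.5-fold higher in second line knockdown than in second line control (log2 fold 1.79, SE 0.09, adjusted p = 2.69e-09). The log2 folds understate the ratio because of the added 1, and were -3.03 and 3.40 with 0.1 added instead. The low values rest on 7 to 16 reads a library, so their order is limited by counting.

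MYCL, the third family member, first known from lung tumours, lies on chromosome 1 from 39895426 to 39902256 (minus strand). MYCL had 0.920, 1.11 and 1.21 FPKM in the SK-N-SH libraries labelled knockdown, against 0, 0.0418 and 0.0211 FPKM in SK-N-SH control, where all 3 libraries held 6 reads together. It had 0.0877, 0.175 and 0.242 FPKM in second line knockdown, against 0.751, 0.625 and 0.465 FPKM in second line control. MYCL was therefore higher in the groups where MYCN was high than in the others, though low in all 4, with no overlap of libraries in either line. Its mean over 12 libraries was under the filter of 0.5 FPKM, so it entered no main test. Without that filter the log2 fold was 1.02 (adjusted p = 2.10e-06) in SK-N-SH and -0.46 (adjusted p = 0.000902) in the second line.

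Within the MYC family, MYCN gave 99.9% of the summed FPKM in both groups where it was high. MYC gave 98.0 ± 1.97% in SK-N-SH control and 95.2 ± 1.69% in second line knockdown (SD, n = 3). MYCL had its largest share in second line knockdown, 4.79 ± 1.69%, against 0.0588 ± 0.0129% in second line control. The family's summed level was 1029 ± 49.2 FPKM in SK-N-SH knockdown and 2.86 ± 0.321 FPKM in SK-N-SH control. It was 3.41 ± 0.448 FPKM in second line knockdown and 1041 ± 33.4 FPKM in second line control. MYC at its highest thus did not approach the level of MYCN.

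**Figure D1:**
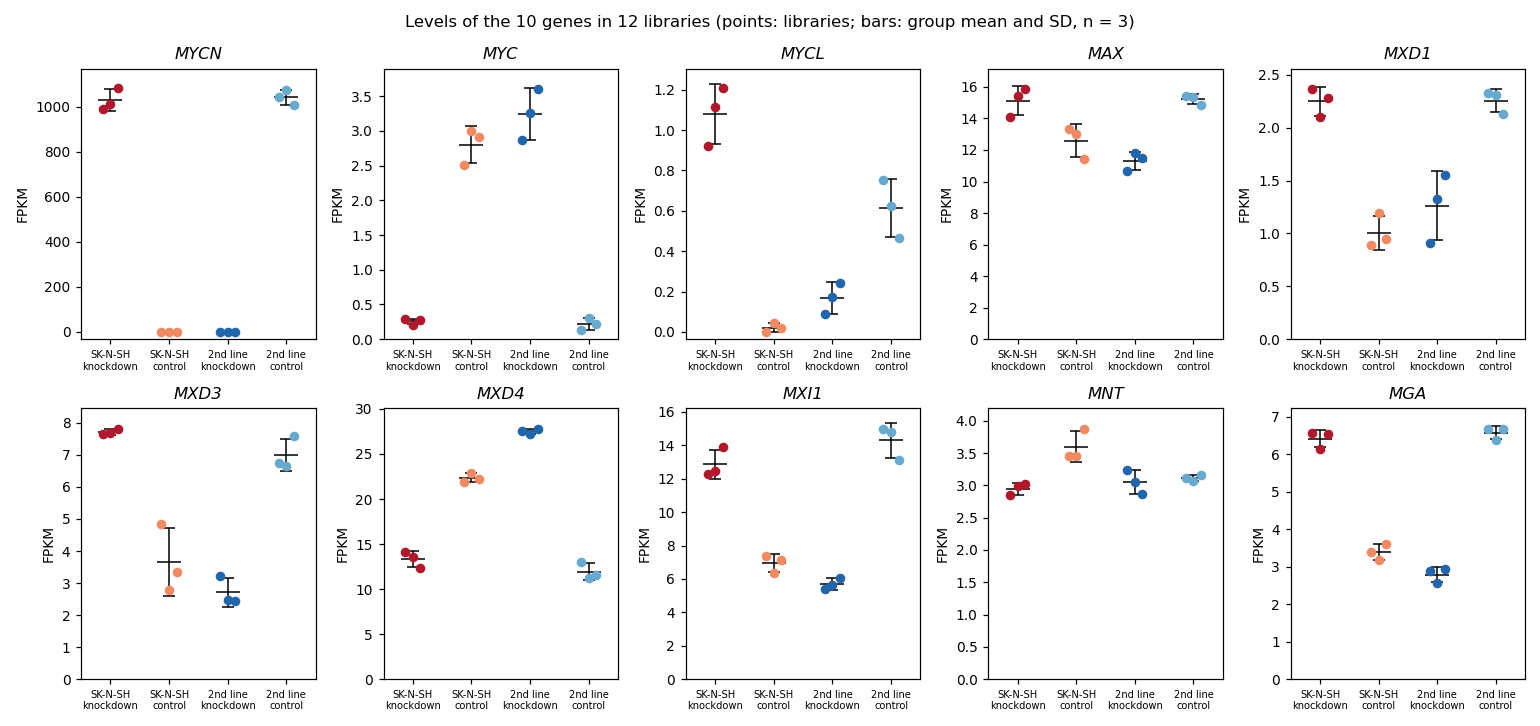
Level of each member in FPKM (vertical axes, a separate scale for each gene, linear) in the 4 groups. Points are libraries and bars are the group mean and SD (n = 3); MYC, MXD4 and MNT have their lowest mean in one of the outer groups, where MYCN is near 1000 FPKM.

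The MYCN locus also makes RNA from the opposite strand. MYCNOS, an antisense gene that shares 1686 bases with MYCN, had 80.0, 92.0 and 100.3 FPKM in the SK-N-SH libraries labelled knockdown, against 0 reads in SK-N-SH control. It had 0 reads in second line knockdown, against 71.3, 86.65 and 92.2 FPKM in second line control. MYCNOS was thus at least 4106-fold higher and at least 3545-fold lower, taking 3 reads over the group as the floor. Its level was 0.0684 to 0.0927 of that of MYCN in the 6 libraries where both were high. The sources used here do not say whether counting used strand, so reads of MYCN and MYCNOS cannot be told apart where they overlap. MYCNUT, a non-coding neighbour, had 2 reads in 1 SK-N-SH library labelled knockdown and 0 elsewhere.

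MAX, the partner through which MYC proteins bind the E-box, varied little. It lies on chromosome 14 from 65006174 to 65102695 (minus strand). MAX had 14.1, 15.4 and 15.9 FPKM in the SK-N-SH libraries labelled knockdown, against 13.4, 13 and 11.4 FPKM in SK-N-SH control. It had 10.65, 11.8 and 11.5 FPKM in second line knockdown, against 15.4, 15.4 and 14.9 FPKM in second line control. The groups did not overlap in either line. MAX was 1.20-fold higher in SK-N-SH knockdown (log2 fold 0.25, SE 0.06, limma adjusted p = 0.00395) and 1.35-fold lower in second line knockdown (log2 fold -0.40, adjusted p = 0.000124). FNTB, on the opposite strand over 56479 bases of the MAX locus, averaged 1.94 to 2.45 FPKM in the 4 groups.

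The ratio of MYC family to MAX transcripts moved with MYCN. The summed family level was 70.3, 65.7 and 68.2 times that of MAX in the SK-N-SH libraries labelled knockdown, against 0.187, 0.240 and 0.260 times in SK-N-SH control. It was 0.277, 0.291 and 0.335 times that of MAX in second line knockdown, against 67.7, 69.7 and 67.7 times in second line control. MAX transcripts thus outnumbered those of the family, per length, in every library of 2 groups and were outnumbered in every library of the other 2. These are levels of RNA and not of protein.

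MXD1, the MXD protein best known for its rise in differentiating cells, lies on chromosome 2 from 69897688 to 69942945. It had 2.37, 2.10 and 2.28 FPKM in the SK-N-SH libraries labelled knockdown, against 0.887, 1.19 and 0.9435 FPKM in SK-N-SH control. It had 0.909, 1.32 and 1.555 FPKM in second line knockdown, against 2.33, 2.305 and 2.13 FPKM in second line control. MXD1 was higher in SK-N-SH knockdown (log2 fold 0.70, SE 0.10, adjusted p = 5.03e-05) and lower in second line knockdown (log2 fold -0.53, SE 0.10, adjusted p = 0.000417). The spread within second line knockdown was the widest of its 4 groups. SNRNP27, on the same strand over 7888 bases of the MXD1 locus, averaged 10.95 to 15.2 FPKM in the 4 groups, above MXD1 in each.

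MXD3, described in proliferating cells, lies on chromosome 5 from 177301461 to 177312757. It had 7.66, 7.695 and 7.825 FPKM in the SK-N-SH libraries labelled knockdown, against 4.84, 2.79 and 3.33 FPKM in SK-N-SH control. It had 3.22, 2.47 and 2.44 FPKM in second line knockdown, against 6.74, 6.67 and 7.58 FPKM in second line control. MXD3 was higher in SK-N-SH knockdown (log2 fold 0.93, adjusted p = 5.21e-05) and lower in second line knockdown (log2 fold -1.11, adjusted p = 1.11e-05), and SK-N-SH control replicate 1 stood above the other two of its group. PRELID1, on the opposite strand over 3186 bases of the locus, averaged 51.2 to 79.4 FPKM and was highest in second line knockdown, where MXD3 was lowest. RAB24, on the same strand as MXD3 over 2284 bases of the locus, averaged 5.41 to 7.82 FPKM.

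MXD4 was the MXD member that moved against the others. It lies on chromosome 4 from 2247432 to 2262294. MXD4 had 14.1, 13.6 and 12.4 FPKM in the SK-N-SH libraries labelled knockdown, against 21.9, 22.9 and 22.2 FPKM in SK-N-SH control. It had 27.5, 27.3 and 27.8 FPKM in second line knockdown, against 13.04, 11.2 and 11.6 FPKM in second line control. The 6 libraries high in MYCN were all under 15 FPKM and the other 6 all above 21 FPKM. MXD4 was 1.67-fold lower in SK-N-SH knockdown (log2 fold -0.70, SE 0.06, limma adjusted p = 4.72e-07) and 2.31-fold higher in second line knockdown (log2 fold 1.14, SE 0.06, adjusted p = 5.90e-09).

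MXI1, also known as MAD2, lies on chromosome 10 from 110207605 to 110287365. MXI1 had 12.3, 12.45 and 13.9 FPKM in the SK-N-SH libraries labelled knockdown, against 7.38, 6.36 and 7.12 FPKM in SK-N-SH control. It had 5.38, 5.65 and 6.08 FPKM in second line knockdown, against 15.0, 14.8 and 13.1 FPKM in second line control. MXI1 was higher in SK-N-SH knockdown (log2 fold 0.80, adjusted p = 8.05e-07) and lower in second line knockdown (log2 fold -1.19, adjusted p = 2.26e-08), with no overlap of libraries.

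MNT, a widely expressed repressor of the network, was the steadiest member. It lies on chromosome 17 from 2384060 to 2401118. MNT had 2.84, 2.98 and 3.02 FPKM in the SK-N-SH libraries labelled knockdown, against 3.46, 3.46 and 3.88 FPKM in SK-N-SH control. It had 3.24, 3.06 and 2.86 FPKM in second line knockdown, against 3.12, 3.07 and 3.15 FPKM in second line control. MNT was lower in SK-N-SH knockdown (log2 fold -0.22, SE 0.05, adjusted p = 0.00282). The second line gave a log2 fold of -0.02, with a 95% confidence interval from -0.14 to 0.10 (adjusted p = 0.718), and its groups overlapped.

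MGA, a large protein with a second DNA-binding domain of the T-box kind and the scaffold of the polycomb complex PRC1.6, lies on chromosome 15 from 41621224 to 41773081. MGA had 6.57, 6.15 and 6.55 FPKM in the SK-N-SH libraries labelled knockdown, against 3.40, 3.18 and 3.61 FPKM in SK-N-SH control. It had 2.88, 2.565 and 2.94 FPKM in second line knockdown, against 6.69, 6.39 and 6.67 FPKM in second line control. MGA was higher in SK-N-SH knockdown (log2 fold 0.76, SE 0.06, adjusted p = 1.23e-07) and lower in second line knockdown (2.36-fold, adjusted p = 9.58e-09).

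The 6 repressive partners changed in make-up more than in sum. Their summed level was 45.8, 44.9 and 45.9 FPKM in the SK-N-SH libraries labelled knockdown, against 41.9, 39.9 and 41.1 FPKM in SK-N-SH control. It was 43.1, 42.3 and 43.7 FPKM in second line knockdown, against 46.9, 44.5 and 44.2 FPKM in second line control. MXD4 gave 29.3 ± 2.08% of that sum in SK-N-SH knockdown and 54.6 ± 2.60% in SK-N-SH control, and 64.0 ± 0.392% in second line knockdown and 26.4 ± 1.31% in second line control (SD, n = 3). MXI1 gave 28.2 ± 1.79% in SK-N-SH knockdown and 17.0 ± 0.896% in SK-N-SH control, and 13.2 ± 0.719% in second line knockdown and 31.7 ± 1.87% in second line control. MXD3 and MGA followed MXI1, and each gave more of the sum in the groups high in MYCN. MXD3 gave 17.0% in SK-N-SH knockdown and 8.88% in SK-N-SH control, and MGA gave 14.1% in SK-N-SH knockdown and 8.29% in SK-N-SH control. MNT kept between 6.47% and 8.79% in the group means. The ratio of the repressive partners to the MYC family was 0.0443 ± 0.00199 in SK-N-SH knockdown and 14.5 ± 2.05 in SK-N-SH control, and 12.8 ± 1.66 in second line knockdown and 0.0434 ± 0.00182 in second line control.

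**Figure D2:**
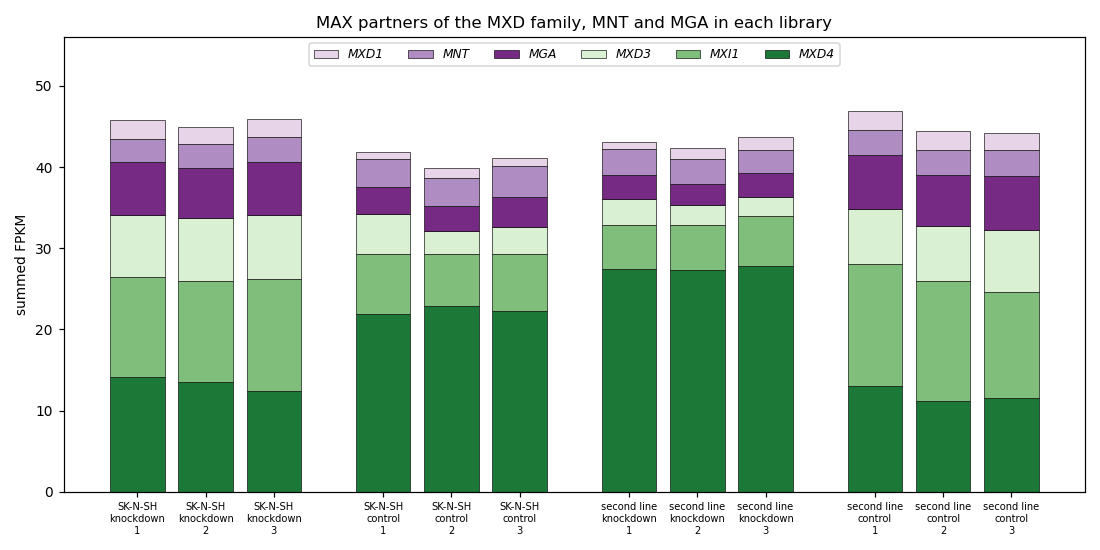
Summed FPKM (vertical axis, from 0) of the 6 repressive partners of MAX in each of the 12 libraries, stacked by gene. MXD4 at the base takes 54.6% and 64.0% of the sum in the middle 2 groups, against 29.3% and 26.4% in the outer 2, while the total stays between 39.9 and 46.9 FPKM.

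The order of the members by level, in FPKM and so per length, was led by MYCN in the groups where it was high and by MXD4 in the others. In SK-N-SH knockdown MYCN was followed by MAX, MXD4 and MXI1, neighbours whose libraries overlapped, then by MXD3, MGA, MNT, MXD1, MYCL and MYC, each apart from its neighbour. In SK-N-SH control MXD4, MAX and MXI1 led without overlap, MXD3, MNT and MGA overlapped, and MYC, MXD1, MYCN and MYCL came last, MYCN and MYCL with overlap. Second line knockdown was ordered MXD4, MAX, MXI1, then MYC, MNT, MGA and MXD3 with overlaps between neighbours, then MXD1, MYCL and MYCN. Second line control was ordered MYCN, MAX, MXI1, MXD4, MXD3, MGA, MNT, MXD1, MYCL and MYC, with overlaps of MAX with MXI1 and of MXD3 with MGA. Over the 4 group means, the highest exceeded the lowest 14.5-fold for MYC, 2.85-fold for MXD3, 2.51-fold for MXI1, 2.36-fold for MGA, 2.31-fold for MXD4, 2.24-fold for MXD1, 1.35-fold for MAX and 1.22-fold for MNT. Spread within groups was smallest for MNT, with a mean coefficient of variation of 4.36%, and largest for MYC, at 19.0%, among the members without a group at or near 0.

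Knockdown against control in SK-N-SH gave a call for each of the 9 members tested. MYCN, MAX, MXD1, MXD3, MXI1 and MGA were higher and MYC, MXD4 and MNT lower. Libraries of all 10 members did not overlap between the groups. The share of all genes without overlap was not computed, so this count is not shown to be particular to the members. MYCN and MYC passed the filter of 0.5 FPKM only through the groups where each was high. MYC averaged 0.257 FPKM in SK-N-SH knockdown and 0.223 FPKM in second line control, both under it. The same filter was used in every comparison. Of all 15856 genes tested, 79.8% were called (40.7% higher and 39% lower), so the number of calls is near that of the transcriptome. The median log2 fold was 0.70 over the 9 members and 0.02 over all genes.

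In the second line, 8 of 9 members were called, where 80% of all genes were called (39.9% higher and 40.2% lower). MYC and MXD4 were higher in second line knockdown, MYCN, MAX, MXD1, MXD3, MXI1 and MGA lower, and MNT was not called. Libraries did not overlap for 9 of the 10 members, all but MNT, and here too the share of all genes without overlap was not computed. The median log2 fold was -0.53 over the 9 members and -0.02 over all genes. Scaling to library totals in place of the authors' size factors moved the median of all genes by -0.13 in the second line and changed no member's call there.

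The log2 fold of libraries labelled knockdown over control was compared between the lines, as second line minus SK-N-SH. This difference was called for all 9 members tested, where 84.9% of all genes were called (41.8% higher and 43.1% lower). It was -19.97 on the log2 scale for MYCN, a value that depends on the added 1, and 3.39 for MYC (SE 0.12, limma adjusted p = 1.16e-10). MXD4 differed by 1.85 (SE 0.08, adjusted p = 1.07e-09), and MXD3, MXI1, MGA, MXD1 and MAX by -2.04, -1.99, -1.76, -1.23 and -0.65. The log2 folds of 8 members had opposite signs in the 2 lines, and both were called. The share of all genes with that pattern was not computed, so it is not shown to be particular to the members. MNT differed by 0.20 (SE 0.08, adjusted p = 0.0306), a call that was lost with scaling to library totals (0.04, adjusted p = 0.705) and on leaving out any of 6 libraries, with adjusted p from 0.0512 to 0.0771. These 6 were SK-N-SH knockdown replicate 1, SK-N-SH control replicate 3, second line knockdown replicates 1 and 2 and second line control replicates 1 and 2.

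**Figure D3:**
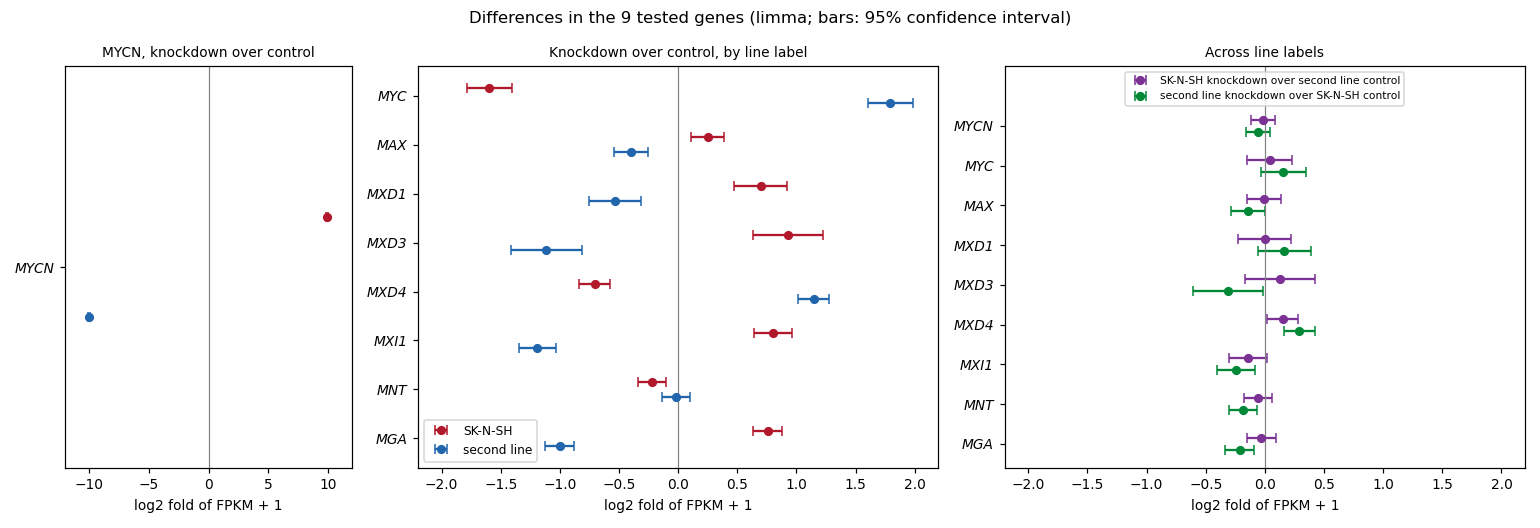
Log2 fold of FPKM + 1 (horizontal axes; MYCN alone on a wider scale at left) for the 9 tested members, with 95% confidence intervals from limma. Knockdown over control lies on opposite sides of 0 in the 2 lines for all but MNT, whereas the comparisons across line labels at right run from -0.31 to 0.29.

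The controls of the lines differed as strongly as knockdown from control. Second line control against SK-N-SH control gave a call for all 9 members, where 79.6% of all genes were called (40.7% higher and 38.9% lower). MYCN, MAX, MXD1, MXD3, MXI1 and MGA were higher in second line control, with log2 folds of 9.97, 0.26, 0.70, 0.80, 0.94 and 0.79, and MYC, MXD4 and MNT were lower, with -1.64, -0.86 and -0.16. TSPYL5 was higher too (log2 fold 0.89). This comparison shares its controls with the ones above. The MNT call was lost with scaling to library totals (adjusted p = 0.0972) and without SK-N-SH control replicate 3 (adjusted p = 0.0765).

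Across the line labels the members were close. In the SK-N-SH libraries labelled knockdown against second line control, limma called 0 of 9 members, and limma with voom weights on recovered reads also called 0. MXD4 alone was under 0.05 before adjustment, as were 18.6% of all genes. In this comparison 5.39% of all genes were called (2.26% higher and 3.12% lower). The log2 folds ran from -0.14 for MXI1 to 0.15 for MXD4, and MYCN gave -0.02 with a 95% confidence interval from -0.12 to 0.09. MYC gave 0.04, with an interval from -0.15 to 0.23. TSPYL5 was lower in SK-N-SH knockdown than in second line control (log2 fold -0.46, adjusted p = 0.000444). MYCL, untested here, was 1.76-fold higher in SK-N-SH knockdown, with no overlap of libraries, but its log2 fold of 0.37 without the filter on low values had an adjusted p of 0.0559.

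Second line knockdown was then set against SK-N-SH control, and 4 of 9 members were called, where 44.1% of all genes were called (26.9% higher and 17.2% lower). MXD4 was higher in second line knockdown (log2 fold 0.29, adjusted p = 0.00251), and MXI1 (-0.25, adjusted p = 0.0171), MNT (-0.18, adjusted p = 0.0175) and MGA (-0.21, adjusted p = 0.00887) were lower. MYC gave 0.16 with a 95% confidence interval from -0.03 to 0.35, and TSPYL5 gave -0.01 with an interval from -0.12 to 0.10. MYCL, untested here, was 8.03-fold higher in second line knockdown (0.168 against 0.0210 FPKM), with no overlap of libraries. Its level in SK-N-SH control rests on 6 reads. Its log2 fold of 0.19 in the limma fit without the filter on low values had an adjusted p of 0.163. With scaling to library totals the share of higher among all calls was 45.7%, against 60.9% with the authors' scaling, MXD4 was no longer called (0.18, adjusted p = 0.0507), and MAX (-0.24, adjusted p = 0.00263) and MXD3 (-0.39, adjusted p = 0.0430) were called lower. Quantile normalization also ended the call of MXD4 (0.10, adjusted p = 0.232) and gave one for MAX (-0.26, adjusted p = 0.00294). With a replicate block MXI1 (adjusted p = 0.0502) and MNT (0.0603) were not called and MXD3 was (-0.31, adjusted p = 0.0140), and with 0.1 added MYCN was called lower (-0.45, adjusted p = 0.0400). Fitted on these 2 groups alone, only MXD4 and MXI1 were called. Leaving out single libraries ended the call of MXI1 (SK-N-SH control replicates 1 and 3 and second line knockdown replicate 1, adjusted p 0.0557 to 0.0615) and of MNT (SK-N-SH control replicate 3 and second line knockdown replicate 3, adjusted p 0.0678 to 0.0762). It gave a call for MAX (without SK-N-SH control replicate 3, adjusted p = 0.0233), for MXD1 (without second line knockdown replicate 1, adjusted p = 0.0182) and for MXD3 (without SK-N-SH control replicate 2, adjusted p = 0.0170, and without second line knockdown replicate 1, adjusted p = 0.0405).

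Genes that work with the network were described from lists of its cofactors, corepressors, complexes and targets. Their counts stand beside a background of 40.7% of all genes called higher and 39% lower in SK-N-SH knockdown, and of 39.9% higher and 40.2% lower in second line knockdown. Among other partners in the wider network, MLXIP, a glucose-sensing MLX partner, was higher in SK-N-SH knockdown (10.5 ± 0.629 FPKM) than in SK-N-SH control (5.28 ± 0.333 FPKM) and lower in second line knockdown (6.27 ± 0.204 FPKM) than in second line control (8.74 ± 0.437 FPKM). MLX had 12.03 ± 1.25 FPKM in SK-N-SH knockdown and 13.6 ± 0.742 FPKM in SK-N-SH control (adjusted p = 0.0492). It was not called in the second line, where the log2 fold was -0.07 (adjusted p = 0.382). MLXIPL was under the filter.

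Of 13 MYC cofactors, 7 rose and 4 fell in SK-N-SH knockdown, with a median log2 fold of 0.33, against 0.02 over all genes. In second line knockdown 4 rose and 5 fell, with a median of -0.05, against -0.02 over all genes. The 11 of 13 called in SK-N-SH and 9 of 13 in the second line stand beside 79.8% and 80% of all genes. WDR5, a MYC-binding chromatin adaptor, averaged 28.96 FPKM in SK-N-SH knockdown and 15.4 FPKM in SK-N-SH control, and 19.5 FPKM in second line knockdown and 29.1 FPKM in second line control. CDK9, the kinase that releases paused polymerase, fell to 12.9 FPKM in SK-N-SH knockdown, against 24.2 FPKM in SK-N-SH control. Its level was 31.2 FPKM in second line knockdown and 14.2 FPKM in second line control. PAF1, an elongation factor, had 15.6 FPKM in SK-N-SH knockdown and 26.3 FPKM in SK-N-SH control, and 28.4 FPKM in second line knockdown and 17.3 FPKM in second line control. The number of cofactors that fell in the second line was 8 with quantile normalization and 8 with scaling to library totals.

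Of 10 corepressor genes used by MXD proteins and MNT, 5 rose and 3 fell in SK-N-SH knockdown (median log2 fold 0.07), and 3 rose and 3 fell in second line knockdown (median -0.01). The 8 of 10 called in SK-N-SH are near the share over all genes, 79.8%, and the 6 of 10 in the second line stand beside 80%. SAP30, a subunit of the SIN3 complex, averaged 54.1 ± 3.95 FPKM in SK-N-SH knockdown and 12.8 ± 2.50 FPKM in SK-N-SH control. It averaged 11.4 ± 2.06 FPKM in second line knockdown and 55.9 ± 1.65 FPKM in second line control. HDAC2, a histone deacetylase of that complex, was 3.58-fold higher in SK-N-SH knockdown (26.6 against 7.43 FPKM) and 3.16-fold lower in second line knockdown (8.62 against 27.2 FPKM). RBBP4, a histone chaperone, was 2.55-fold higher and 2.62-fold lower in the same comparisons. HDAC1 and SAP18 went the other way. HDAC1 was 1.63-fold lower in SK-N-SH knockdown (22.6 against 36.8 FPKM) and 1.93-fold higher in second line knockdown (42.3 against 21.9 FPKM). SAP18 was 1.51-fold lower in SK-N-SH knockdown and 1.74-fold higher in second line knockdown. SIN3B, the scaffold itself, was called in neither line, and SIN3A was higher in second line knockdown, 1.18-fold. With scaling to library totals 5 of the 10 fell in the second line.

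Of 9 other PRC1.6 subunits, the complex that MGA scaffolds, 7 rose and 2 fell in SK-N-SH knockdown (median log2 fold 0.48), and 2 rose and 6 fell in second line knockdown (median -0.32). Over all genes 40.7% were called higher and 39% lower in SK-N-SH, and 39.9% higher and 40.2% lower in the second line. E2F6, its E2F-like DNA-binding subunit, averaged 12.2 ± 0.661 FPKM in SK-N-SH knockdown and 5.16 ± 0.132 FPKM in SK-N-SH control, and 6.62 ± 0.372 FPKM in second line knockdown and 11.4 ± 0.738 FPKM in second line control. The ubiquitin ligases RNF2 and RING1, which other polycomb complexes share, were the 2 that went the other way. RNF2 had 5.30 FPKM in SK-N-SH knockdown and 11.5 FPKM in SK-N-SH control, and 12.3 FPKM in second line knockdown and 5.52 FPKM in second line control. RING1 had 34.7 FPKM in SK-N-SH knockdown and 67.7 FPKM in SK-N-SH control, and 59.5 FPKM in second line knockdown and 35.6 FPKM in second line control.

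Of 12 genes of MYC protein turnover, 8 rose and 3 fell in SK-N-SH knockdown (median log2 fold 0.40), and 3 rose and 6 fell in second line knockdown (median -0.30), where called genes made up 79.8% of all in SK-N-SH and 80% in the second line. SKP2, a ubiquitin ligase subunit that targets MYC, was 3.12-fold higher in SK-N-SH knockdown (38.2 against 12.3 FPKM) and 3.45-fold lower in second line knockdown (10.5 against 36.2 FPKM). USP7, a deubiquitinase known to stabilise MYCN protein, had 23.7 FPKM in SK-N-SH knockdown and 11.8 FPKM in SK-N-SH control, and 13.8 FPKM in second line knockdown and 24.3 FPKM in second line control. TRIM32, a ligase known to act on MYC in mouse neural progenitors, fell to 5.25 FPKM in SK-N-SH knockdown, against 8.94 FPKM in SK-N-SH control. It had 10.02 FPKM in second line knockdown and 5.15 FPKM in second line control. FBXW7, which marks phosphorylated MYC for destruction, rose 1.74-fold in SK-N-SH knockdown and was 1.71-fold lower in second line knockdown.

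Genes known to be activated by MYC proteins more often rose than fell in SK-N-SH knockdown and more often fell than rose in second line knockdown. Of 24 such genes 23 were tested, and 19 rose and 2 fell in SK-N-SH knockdown (median log2 fold 0.99), while 3 rose and 14 fell in second line knockdown (median -0.50). The background was 40.7% higher and 39% lower among all genes in SK-N-SH, and 39.9% higher and 40.2% lower in the second line, and no test of the list against it was made. CAD, which starts pyrimidine synthesis, averaged 39.5 ± 2.02 FPKM in SK-N-SH knockdown and 12.9 ± 0.930 FPKM in SK-N-SH control, and 13.1 ± 0.776 FPKM in second line knockdown and 37.8 ± 0.390 FPKM in second line control. MCM7, a subunit of the replicative helicase, averaged 159 ± 11.6 FPKM in SK-N-SH knockdown and 52.2 ± 7.20 FPKM in SK-N-SH control, and 63.3 ± 13.7 FPKM in second line knockdown and 157 ± 0.644 FPKM in second line control. LDHA, lactate dehydrogenase A, went the other way and by more than any other gene of the list. It averaged 7.53 ± 0.837 FPKM in SK-N-SH knockdown and 136 ± 3.02 FPKM in SK-N-SH control, and 147 ± 16.8 FPKM in second line knockdown and 7.02 ± 0.239 FPKM in second line control. NME2 shared that direction, at 1.52-fold lower in SK-N-SH knockdown and 1.39-fold higher in second line knockdown. Several genes of this list, such as NPM1 and PTMA, have near-identical processed copies elsewhere, so their levels are less certain. The E-box was in the promoter window of 10 of the 21 genes of this list that had one (47.6%), and in 2110 of all 27305 gene symbols with a window (7.73%). Counted by window, it was in 10 of 31 (32.3%), beside 6.34% of all windows. Known targets may have been named through an E-box, so these shares are no separate support, and the part of that choice was not tested.

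Genes known to be repressed by MYC proteins were split. Of 16 such genes 15 were tested, and 4 rose and 9 fell in SK-N-SH knockdown (median log2 fold -0.85), while 9 rose and 6 fell in second line knockdown (median 0.42), beside 79.8% and 80% of all genes called. CDKN1A, the cell cycle inhibitor p21, averaged 3.84 ± 0.164 FPKM in SK-N-SH knockdown and 295 ± 70.9 FPKM in SK-N-SH control, and 332 ± 12 FPKM in second line knockdown and 2.23 ± 0.180 FPKM in second line control. TGM2, a transglutaminase, averaged 1.05 ± 0.0931 FPKM in SK-N-SH knockdown and 619 ± 154 FPKM in SK-N-SH control, and 421 ± 41.6 FPKM in second line knockdown and 0.784 ± 0.109 FPKM in second line control. TGFBR2, a TGF-beta receptor, averaged 0.464 ± 0.0528 FPKM in SK-N-SH knockdown and 24.7 ± 1.43 FPKM in SK-N-SH control, and 37.4 ± 0.849 FPKM in second line knockdown and 0.397 ± 0.0442 FPKM in second line control. CDKN1C, a cell cycle inhibitor, NDRG2 and NGFR, a neurotrophin receptor, were among those that rose in SK-N-SH knockdown, and each of them fell in second line knockdown. Only 8 of the 16 genes of this list had a promoter window, and the E-box was in 0 of these, beside 7.73% of all gene symbols with a window. So few genes cannot tell the list from that background.

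**Figure D4:**
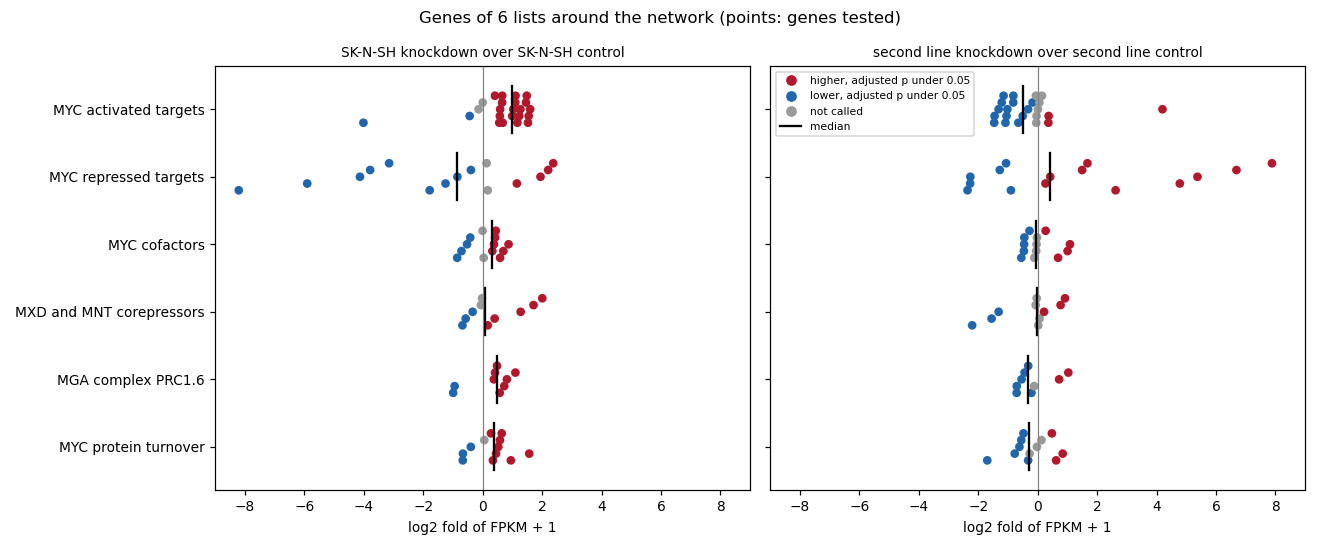
Log2 fold of FPKM + 1 (horizontal axes) for every tested gene of 6 lists, for SK-N-SH knockdown over control (left) and second line knockdown over control (right). Each point is a gene, coloured by its call, and the black bar is the list's median; the MYC activated targets have a median of 0.99 at left and -0.50 at right.

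Markers of cell state moved with the members. All 10 noradrenergic markers, genes of the sympathetic neuron lineage, rose in SK-N-SH knockdown and all 10 fell in second line knockdown. Their summed level was 1218 to 1311 FPKM in SK-N-SH knockdown and 84.1 to 97.3 FPKM in SK-N-SH control, and 70.6 to 86.6 FPKM in second line knockdown and 1374 to 1420.3 FPKM in second line control. Of 10 mesenchymal markers, 1 rose and 7 fell in SK-N-SH knockdown, and 9 rose and 1 fell in second line knockdown. Both lists stand beside 40.7% of all genes called higher and 39% lower in SK-N-SH. In the second line 39.9% of all genes were called higher and 40.2% lower. No test of these lists against that background was made. Their sum was 245 to 253 FPKM in SK-N-SH knockdown and 855 to 864 FPKM in SK-N-SH control, and 811 to 888 FPKM in second line knockdown and 232 to 248 FPKM in second line control. TH, tyrosine hydroxylase, the first enzyme of catecholamine synthesis, had 0 reads in SK-N-SH control and in second line knockdown. PRRX1, a mesenchymal regulator, averaged 0.0693 FPKM in SK-N-SH knockdown and 137 FPKM in SK-N-SH control, and 152 FPKM in second line knockdown and 0.0501 FPKM in second line control. The part of these markers in the members' differences was not tested.

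Markers of Schwann cells and of blood and endothelium were low, whereas the epithelial keratins KRT18 and KRT8 were not in 2 groups. The sum of 6 Schwann cell markers was 1.59 to 1.81 FPKM in SK-N-SH knockdown and 1.54 to 2.31 FPKM in SK-N-SH control, and 1.30 to 1.64 FPKM in second line knockdown and 1.47 to 1.496 FPKM in second line control, with FOXD3 at 0 reads in each group. The sum of 7 blood and endothelial markers was at most 1.39 FPKM, with CD3E at 0 reads in each group. The sum of 6 epithelial markers was 1.36 to 1.67 FPKM in SK-N-SH knockdown and 21.7 to 26.4 FPKM in SK-N-SH control, and 25.0 to 31.0 FPKM in second line knockdown and 1.36 to 2.08 FPKM in second line control. KRT18, a keratin, averaged 0.0591 FPKM in SK-N-SH knockdown and 17.3 FPKM in SK-N-SH control, and 22.3 FPKM in second line knockdown and 0.0739 FPKM in second line control. KRT8, its partner, averaged 0.0339 FPKM in SK-N-SH knockdown and 4.13 FPKM in SK-N-SH control, and 4.20 FPKM in second line knockdown and 0.0284 FPKM in second line control, and CDH1 was under 0.1 FPKM in each group. The epithelial markers did not all go one way. Of 4 tested, 1 was called higher and 3 lower in SK-N-SH knockdown, and 3 higher and 1 lower in second line knockdown. Among all genes 79.8% were called in SK-N-SH and 80% in the second line. The part of the epithelial markers in the members' differences was not tested either.

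Genes with the pattern most like a member's were named by the root mean square difference of centred log2(FPKM + 1) over the 12 libraries, which fall into high and low groups for any such gene. Nearest to MYCN were GAL, a neuropeptide (1.32), CD24, a surface glycoprotein (1.37), CHGA, a secretory granule protein (1.39), TH (1.46) and INSM2, a zinc finger protein (1.66). GAL averaged 168 ± 14.7 FPKM in SK-N-SH knockdown and 0.274 ± 0.0482 FPKM in SK-N-SH control, and 0.0294 ± 0.0255 FPKM in second line knockdown and 207 ± 7.32 FPKM in second line control. Nearest to MYC were FLVCR1-DT, a long non-coding RNA (0.0651), RNASET2, a lysosomal ribonuclease (0.0775), CD99L2 (0.0824), KANK1 (0.0836) and PTCHD4 (0.0840). FLVCR1-DT averaged 0.447 ± 0.0493 FPKM in SK-N-SH knockdown and 3.33 ± 0.353 FPKM in SK-N-SH control, and 3.69 ± 0.181 FPKM in second line knockdown and 0.503 ± 0.0666 FPKM in second line control.

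The nearest genes of the repressive partners were at distances from 0.0395 for MGA to 0.0975 for MXD3. MXD4 was nearest to CHIC1 (0.0691), PHACTR2 (0.0693) and STYX, a phosphatase-like protein (0.0785). STYX averaged 4.20 ± 0.124 FPKM in SK-N-SH knockdown and 7.61 ± 0.425 FPKM in SK-N-SH control, and 8.67 ± 0.790 FPKM in second line knockdown and 3.57 ± 0.217 FPKM in second line control. MXI1 was nearest to SH2B2 (0.0796), KBTBD6 (0.0814) and PRKACB, a catalytic subunit of protein kinase A (0.0841). MXD3 was nearest to CIT, the kinase citron of cell division (0.0975), IL7 (0.108) and RBFOX2, a splicing factor (0.113). MGA was nearest to EIF2AK2, the RNA-activated kinase PKR (0.0395), KDM2A, a histone demethylase (0.0512), and LINC02210 (0.0519). EIF2AK2 averaged 15.8 ± 0.734 FPKM in SK-N-SH knockdown and 8.79 ± 0.334 FPKM in SK-N-SH control, and 7.54 ± 0.469 FPKM in second line knockdown and 15.6 ± 0.303 FPKM in second line control.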

How the data were processed

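RNA was sequenced from 12 libraries, and the deposited table gives FPKM per gene. Per the submitters' processing notes the authors used HISAT2 2.0.5 and featureCounts 1.5.0-p3. Those notes also name a mouse build that is not used here: the start and end of all 58735 genes equal GENCODE 29 on GRCh38. Sources used here do not give strand use in counting. FPKM times gene length gave whole reads for 100% of values (tolerance 0.05 reads), 15425460 to 19249018 reads per library, and the authors' denominator was in proportion to median-of-ratios size factors. Mitochondrial genes took 6.25% to 8.23% of reads. No pair of replicates agreed within sampling noise. Reads behind low values and floors of 3 reads cover counting error only.

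Groups came from titles and the genotype label. The 15856 genes whose mean FPKM reached 0.5 were fitted by limma 3.58.1 (R 4.3.3) on log2(FPKM + 1), with 4 group means over 12 libraries, an intensity trend, two-sided p-values and Benjamini-Hochberg adjustment over all tested genes at 0.05. A sentence that gives a log2 fold is on that scale, which understates changes of low genes, and other folds are ratios of mean FPKM. The fit was also run on simulated data in which most genes were left unchanged. Most genes were called in the knockdown comparisons here, so that run gives no error rate for these data. Members and the 13 lists of 128 symbols, all matched, were chosen with earlier results of these data known. The text names every member and TSPYL5, MYCNOS and MYCNUT, up to 3 called genes per list with the largest SK-N-SH fold, and the 5 genes (MYCN, MYC) or 3 genes (other tested members whose group means span at least 1 log2 unit) of most similar pattern. The list genes named beyond this were chosen after their values were seen. They are FBXW7, SIN3A, SIN3B, HDAC1, SAP18, NME2, NPM1, PTMA, MLXIPL, FOXD3, CD3E, CDH1, CDKN1C, NDRG2 and NGFR. The overlapping genes FNTB, PRELID1, SNRNP27 and RAB24 were also chosen after their values were seen. A few list genes are not reported here. Promoter sequences are RefSeq's (GRCh38.p14). Alternatives were another pseudocount, filter, scaling or weighting, the compared groups alone, a replicate block and leaving out each library.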

Additional observations from a re-analysis of the deposited data

Results flagged for a closer look

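The following log2 folds of knockdown over control differed between the lines by the interaction term of the limma fit, with adjusted p under 0.05, and are given as second line minus SK-N-SH. The values were -19.97 for MYCN, 3.39 for MYC, -0.65 for MAX and -1.23 for MXD1. They were -2.04 for MXD3, 1.85 for MXD4, -1.99 for MXI1, 0.20 for MNT and -1.76 for MGA. The antisense gene MYCNOS gave -12.9, between groups at 0 reads and groups with high levels, so this value depends on the added 1. The value of MYCN depends on it too, since its low groups held 0 to 4 reads a library. That of MYC was 6.43 with 0.1 added instead. The libraries labelled SK-N-SH knockdown did not have lower TSPYL5 than SK-N-SH control, though they had lower TSPYL5 than second line control. This bears on every one of these differences, and the part of TSPYL5 in them was not tested.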

How the results depend on the processing

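Every call and direction of a member in the knockdown comparisons held under each alternative that tested it, apart from the sign of the uncalled MNT value in the second line (-0.054 to 0.012 on leaving out one library). Members called numbered 7 in SK-N-SH and 6 in the second line with a minimum mean of 2 FPKM, which tests fewer of them, and 10 and 9 with no filter, which adds MYCL. Across labels, SK-N-SH knockdown over second line control gave 854 called genes, 451 with the replicate block, and 474 to 638 on leaving out one library (all but SK-N-SH knockdown replicate 3 moved it over 1.5 times). Second line knockdown over SK-N-SH control gave 4 called members, 2 with only the groups compared, and 3 to 5 on leaving out one library. The cause of these changes was not tested. Uncalled values across the line labels changed sign: MAX with quantile normalization (0.0049), and on leaving out one library MYCN (-0.056 to 0.010), MYC (-0.011 to 0.093), MAX (-0.043 to 0.039), MXD1 (-0.031 to 0.030) and TSPYL5 (-0.051 to 0.013). Scaling to library totals moved the median of all genes by -0.17 in the difference between lines. Replicate numbers did not pair the libraries (correlation of same-numbered deviations -0.08 to 0.10), and with the replicate block MNT's difference between lines had an adjusted p of 0.0571, and MXI1 and MNT lost and MXD3 gained a call in second line knockdown over SK-N-SH control. A planned quasi-likelihood count test was not run, since the deposited unit is FPKM, and the groups compared alone cannot give the difference between lines. Levels resting on a few reads (low MYC, MYCL and MYCN) are limited by depth.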
